A study of Mus musculus with 4 samples.

Results

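The genes described here are 10 surface markers used to recognise stem cells of skin and skin tumours, or the stromal cells around them: Cd34, Thy1, Eng, Cd200, Cd24a, Ly6a, Pdpn, Cd9, Lrig1 and Lgr6. They were chosen by name from 29836 genes that could be named in the files. Messenger RNA was sequenced from mouse primary skin squamous cell carcinomas (SCC), as 2 libraries of reporter negative cells and 2 of reporter positive cells, 1 of each in experiment 1 and in experiment 2. All libraries came from tumour stem cells that had been sorted for integrin alpha6 and CD44 after removal of lineage-positive cells, from tumours of skin epidermis in mice of strain C57BL/6 X FBV. All carried TetO-Hras, an Hras oncogene under a tetracycline-responsive element, and the LV-rtTA3-TGF-beta reporter, so these were common to both groups. The groups differed in mCherry fluorescence: cells without it are labelled as lacking signalling by transforming growth factor beta (TGF-beta), and cells with it as having that signalling. The labels state no animal age, no treatment, no promoter for rtTA3 and no pooling of animals or tumours. They do not say that the experiments used separate animals, so a p-value here reflects the spread among these 4 libraries, which may be technical.

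By way of background, normal hair follicle stem cells in the bulge carry CD34 and CD200 in mice, Lrig1 marks stem cells of the upper follicle, and Lgr6 marks cells of the central isthmus that contribute to epidermis and sebaceous gland. Thy-1, Sca-1 (the product of Ly6a) and CD24 are small proteins held in the membrane by a lipid anchor and serve widely as sorting antigens. Podoplanin (Pdpn) and the tetraspanin CD9 organise adhesion and the cell cortex, and endoglin (Eng) is a co-receptor for ligands of the TGF-beta family that is best known from endothelium. In chemically induced mouse skin carcinoma, CD34 is among the markers of tumour-propagating cells.

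Levels are FPKM (fragments per kilobase of transcript and per depth of the library), summed over the transcripts of a gene, so levels of different genes may be compared per length. A change is the difference of log2(FPKM + 1), reporter positive minus reporter negative, which understates the change of low genes. Of the 10 genes, 8 reached 1 FPKM in at least 2 libraries and were tested with limma across 11832 genes. Only Thy1 passed an adjusted p of 0.05 among these 8 genes, and it fell. None of the 8 rose past the threshold, although at an unadjusted p under 0.05 there were 5 lower genes and 1 higher gene, against 18.2% of all genes tested lower and 7.61% higher at that level. Of all genes tested, 5.49% passed, 2.72% as higher and 2.77% as lower. With the experiment number as a block, a term for the experiment in the fit, Cd200 passed as well and 11.3% of all genes did, 4.35% as higher and 6.96% as lower.

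Of the 9 genes above 0, 8 were lower in the positive library of both experiments and 1, Cd24a, was higher in both. The positive and negative libraries did not overlap for any of the 9. The background for such counts is wide: 54.3% of all genes tested were lower in both experiments and 20.7% higher in both, and 42.8% were lower and 15.3% higher without overlap. The median change over all genes tested was −0.18, and it was 0.03 after median-of-ratios scaling. The median over the 8 tested markers was −0.48, and −0.24 after that scaling.

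**Figure D1:**
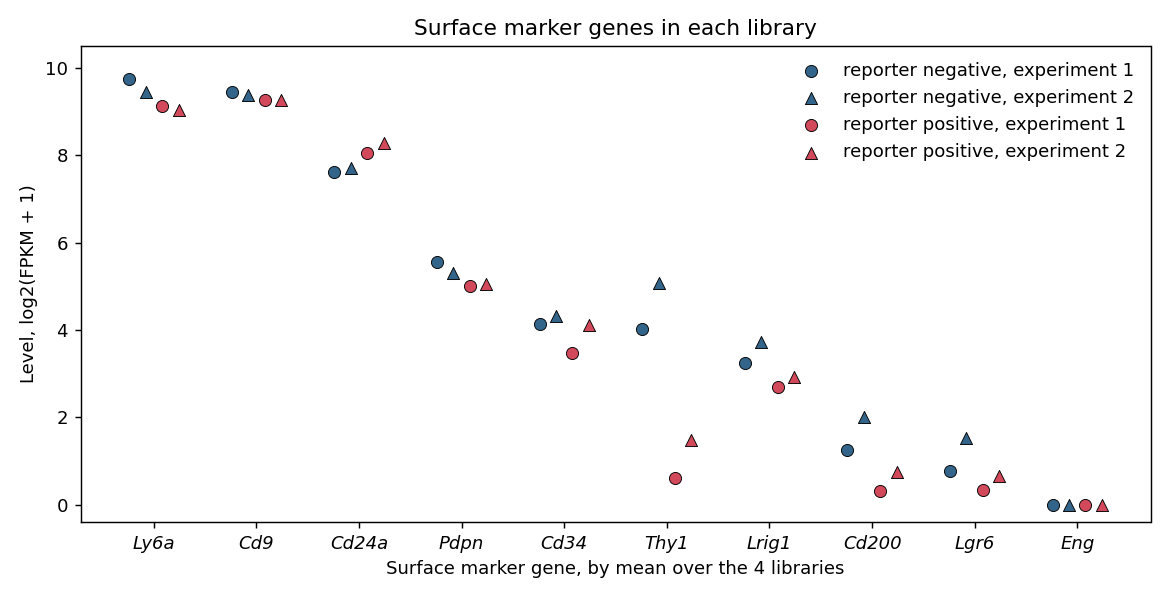
Level of each of the 10 surface marker genes as log2(FPKM + 1), 1 symbol per library, with genes ordered by their mean over the 4 libraries. Blue symbols are reporter negative and red symbols reporter positive libraries, circles experiment 1 and triangles experiment 2; Thy1 shows the widest gap between colours, Cd24a alone has red above blue, and Eng is listed at 0.

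The levels spanned the range from the most abundant transcripts of these cells to the limit of what was measured. Ly6a had the highest mean over the 4 libraries, 655 FPKM, and Cd9 followed at 648 FPKM. These neighbours could not be ordered, since their ranges overlapped and only 2 of 4 libraries held Ly6a above Cd9. In each library at least 98.8% of all genes above 0 stood below Ly6a, and likewise below Cd9. Cd24a came next at 245 FPKM and Pdpn at 37.0 FPKM, each in that place in all 4 libraries. The range of Thy1 (12.5 FPKM) overlapped with those of Cd34 (15.5 FPKM) and Lrig1 (8.18 FPKM). Cd34 stood below Pdpn, and Lrig1 above Cd200, in all 4 libraries. Cd200 (1.33 FPKM) and Lgr6 (0.855 FPKM) overlapped with each other and lay at the low end, and Eng was listed at 0.

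Thy1 encodes the lipid-anchored glycoprotein Thy-1 (CD90), carried by T cells, neurons and many fibroblasts and used to sort tumour and stromal cells. Its gene lies on chromosome 9 between 43851467 and 43856662, plus strand, in build mm9. It was measured at 15.2 and 32.5 FPKM in the negative libraries of experiments 1 and 2. In the positive libraries it was 0.521 and 1.80 FPKM. Both positive libraries lay far below both negative ones, by 29.2-fold in experiment 1 and 18.0-fold in experiment 2. The group means were 23.9 ± 12.2 FPKM (SD, n = 2) without and 1.16 ± 0.905 FPKM (SD, n = 2) with reporter fluorescence. On the log2 scale the change was −3.50 ± 0.47 (SE), with a 95% interval from −4.71 to −2.28 and an adjusted p of 0.0305 by limma. The block gave an adjusted p of 0.00514.

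All of the Thy1 signal came from the sole annotated transcript, so assembly of other forms did not enter its value, and no stretch of 50 bases of it occurs in another gene's transcripts. The half-width of the interval that Cufflinks deposits was 9.15% and 5.66% of the value in the negative libraries and 35.7% and 24.3% in the positive ones, which covers counting error only. The negative library of experiment 2 held the highest value. Without it the change was −2.97 with an adjusted p of 0.0573, which did not pass. Because these are bulk samples, fewer cells carrying a transcript and less transcript per cell cannot be told apart.

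Other cell types that carry Thy-1 could be present after a sort, and their markers were read beside it. Of 13 lymphocyte markers, 12 had a value, none was tested because none reached 1 FPKM in 2 libraries, and 11 stayed under 1 FPKM in every library, with Ncr1 at 0 throughout. Their sums were 2.34 and 1.45 FPKM in negative and 0.471 and 1.33 FPKM in positive libraries, below the Thy1 level of each negative library. Lck, which alone among them exceeded 1 FPKM in a library, was at 1.09 and 0.826 FPKM in negative and 0.123 and 0.571 FPKM in positive libraries. Of the T cell receptor components, Trac was at 0.653 and 0.110 against 0 and 0.218 FPKM. Cd3e stood at 0.0502 and 0.0211 FPKM in negative and 0.0444 and 0.0958 FPKM in positive libraries. Fibroblast markers summed to 223 and 282 FPKM in negative against 161 and 195 FPKM in positive libraries, with S100a4, which carcinoma cells can also express, at 166 and 179 against 136 and 147 FPKM. Of 21 fibroblast markers, 11 were tested and none passed, the median change was −0.76, and none was at 0 in every library. Of the 11, 8 were lower in both experiments, and with the block 4 passed as lower: Vim, Mmp2, Col6a1 and Col1a2. The matrix gene Postn, described below, was counted in the hair follicle list and not in this one. It passed the threshold as lower, so the statement that none passed depends on that placement. The receptor Pdgfra, a defining gene of dermal fibroblasts, was at 0.174 and 0.200 against 0.154 and 0.444 FPKM, while the intermediate filament gene Vim was at 14.8 and 39.4 against 5.92 and 8.38 FPKM. Their part in the Thy1 result was not tested.

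The genes whose pattern over the 4 libraries was most like that of Thy1 were sought by the smallest distance between mean-centred log2(FPKM + 1) values among 7291 genes. Postn, which encodes the matrix protein periostin, was nearest at a distance of 0.50, and the glutamine synthetase gene Glul followed at 0.59. Postn was measured at 89.7 and 191 FPKM in negative libraries and at 4.78 and 11.0 FPKM in positive ones. It passed the threshold as lower, with a change of −3.99 ± 0.50 and an adjusted p of 0.026 by limma. That is no separate evidence on Thy1, since a gene picked for the same pattern is low in the same libraries. Glul was measured at 30.5 and 65.1 FPKM and at 2.52 and 8.06 FPKM. No gene lay within 0.5 of Thy1, whereas 261 did for Cd200, 1054 for Lgr6 and 1875 for Lrig1. With 4 libraries such likeness is a description only. Since log2(FPKM + 1) understates the change of low genes, the counts for Cd200 and Lgr6 cannot be compared directly with that for Thy1. Nor can the count for Lrig1, since a gene that ranges little has more genes within a fixed distance. The log2 range over the 4 libraries was 4.46 for Thy1 and 1.02 for Lrig1. The nearest genes to Cd200 were Mycl, at 7.62 and 12.7 FPKM in negative and 3.26 and 5.06 FPKM in positive libraries, and Ltbp4, at 11.4 and 19.1 against 5.40 and 8.19 FPKM. Those to Lrig1 were Maco1, at 9.59 and 13.3 against 6.12 and 7.23 FPKM, and Sirpa, at 9.61 and 13.2 against 6.31 and 7.45 FPKM. Those to Lgr6 were Msl2, at 5.32 and 9.75 against 3.71 and 4.65 FPKM, and Rell1, at 13.7 and 24.2 against 10.3 and 13.2 FPKM. Candidates had a mean of at least 5 FPKM, so those of Cd200 and Lgr6 are alike on the log2(FPKM + 1) scale only. In fold, Cd200 (5.86 and 4.31) and Lgr6 (2.64 and 3.30) fell more in both experiments than the genes named beside them.

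**Figure D2:**
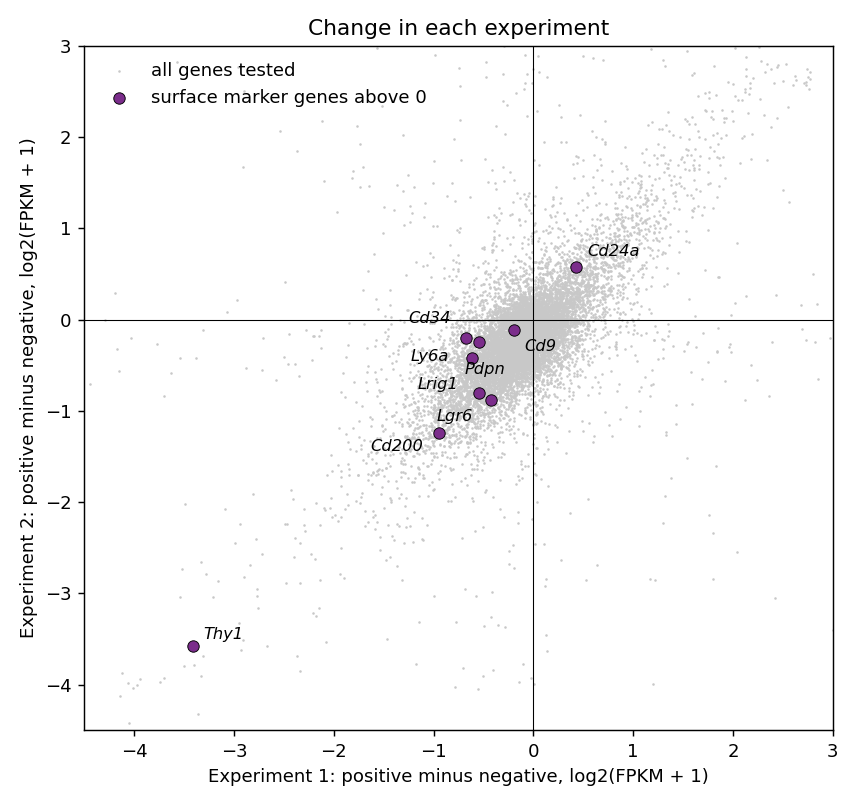
Change of each gene in experiment 1 (horizontal) and experiment 2 (vertical), as the positive library less the negative one in log2(FPKM + 1); grey points are the genes tested, of which 151 lie outside the axes, and purple points the 9 surface marker genes above 0. Thy1 stands at −3.41 and −3.58, Cd24a alone lies to the upper right of the origin, and the other 7 lie in the lower left.

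Among the hair follicle stem cell markers, Cd200 encodes a ligand that restrains myeloid cells through its receptor CD200R. Its locus is on the minus strand of chromosome 16 (45382248 to 45409166, mm9). Cd200 stood at 1.39 and 2.996 FPKM in negative and at 0.237 and 0.695 FPKM in positive libraries. Both positive values lay below both negative values, 5.86-fold in experiment 1 and 4.31-fold in experiment 2. The change was −1.09 ± 0.34 with an adjusted p of 0.130 by limma, and 0.0430 with the block, so the call rested on whether the experiment was a term in the fit. With a pseudocount of 0.1 the change was −2.05. Different forms carried the gene in each library: assembled transcripts made up 100% of its FPKM in the first negative library and 71.2% in the second, 0% in the first positive library and 50.3% in the second.

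Lgr6 encodes a receptor for R-spondins, which strengthen Wnt signalling. Its position is the minus strand of chromosome 1 (136882925 to 137001853, mm9). Its values were 0.699 and 1.88 FPKM in negative libraries and 0.265 and 0.571 FPKM in positive ones, in the same order as Cd200. It reached 1 FPKM in 1 library only and was not tested. Without a filter on low values its change was −0.65 ± 0.32 with an adjusted p of 0.374 by limma. The value of the first negative library came wholly from an assembled transcript, so annotated Lgr6 forms were listed at 0 there. This transcript had 18 exons and the same 5' end as the longest annotated form, which also has 18. It ran past the gene only at the 3' end, with 6667 bases against 3628. The Lgr6-201 transcript of GENCODE M21 has 6675 bases. Among 10 genes for R-spondins, their receptors and the ligases they act on, 5 were tested and 1, Lgr4, passed, as lower. Lgr4, a related receptor, was at 5.71 and 7.74 FPKM in negative and at 1.82 and 2.39 FPKM in positive libraries, a change of −1.31 ± 0.23 with an adjusted p of 0.049 by limma. The median change of the 5 was −0.49.

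Lrig1 encodes a membrane protein that restrains receptors of the epidermal growth factor family. The gene lies on the minus strand of chromosome 6 (94554523 to 94650152, mm9), where its end overlaps Slc25a26 on the other strand. It was measured at 8.48 and 12.2 FPKM in negative and at 5.49 and 6.57 FPKM in positive libraries. The groups did not overlap, but the spread between the negative libraries was larger than the gap between the nearest libraries of the 2 groups. The change was −0.67 ± 0.24 (95% interval −1.28 to −0.07) with an adjusted p of 0.164 by limma. Of 9 related genes and receptors that LRIG1 restrains, 7 were tested and none passed, while 1, Lrig3, passed as lower with the block. Lrig3 was at 3.20 and 4.40 against 1.03 and 1.23 FPKM. Its change was −1.16, with an adjusted p of 0.057 by limma, and 0.035 with the block. The median change of the 7 was −0.16, and 0.06 after median-of-ratios scaling. Erbb2 was at 14.0 and 21.2 against 15.5 and 17.2 FPKM, and Met at 14.6 and 19.2 against 10.8 and 13.9 FPKM.

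Cd34 encodes a heavily glycosylated adhesion protein of bulge stem cells, blood progenitors and endothelium. The gene lies on the plus strand of chromosome 1 (196765015 to 196787486, mm9). It was measured at 16.7 and 19.0 FPKM in negative and at 10.1 and 16.4 FPKM in positive libraries. The positive library of experiment 2 lay just below the lower negative library, and that of experiment 1 stood apart as the lowest. The change was −0.44 ± 0.26 (95% interval −1.11 to 0.23) with an adjusted p of 0.349 by limma. The change was −0.11 without the first positive library and −0.76 without the second, while quantile normalization gave −0.27 and median-of-ratios scaling −0.21.

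Both annotated Cd34 forms were measured, and they differ in the part of the protein inside the cell. They share their coding sequence up to base 964, after which the first form runs on for 185 bases, ending a protein of 382 residues, while the second stops after 14 bases, ending one of 325 residues. Coding bases 935 onward are shown for both because they mark where the cytoplasmic tail is kept or lost, in lower case up to the shared base and in capitals after it (GENCODE M21 transcripts).
Cd34-201: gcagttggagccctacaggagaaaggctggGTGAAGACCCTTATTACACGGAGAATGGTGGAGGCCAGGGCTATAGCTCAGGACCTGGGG
Cd34-202: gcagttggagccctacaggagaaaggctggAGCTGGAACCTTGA
The form with the long tail was measured at 9.91 and 9.37 FPKM in negative and at 5.26 and 9.13 FPKM in positive libraries. The short-tailed form was measured at 6.80 and 9.61 FPKM and at 4.85 and 7.27 FPKM. Both forms were lowest in the positive library of experiment 1.

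Ly6a encodes Sca-1, a small lipid-anchored protein of the Ly6 family that marks blood and skin progenitors. The gene lies on the minus strand of chromosome 15 (74825308 to 74828064, mm9), in a cluster of near copies. Its close relative Ly6i is 86.4% identical over 405 coding positions, with up to 80 identical bases in a row, and Ly6c1 is 82.0% identical. The first 180 coding bases of both Ly6a and Ly6i are shown because reads from such stretches can be placed on either gene; the 12 bases that differ are in capitals (GENCODE M21 transcripts).
Ly6a-201: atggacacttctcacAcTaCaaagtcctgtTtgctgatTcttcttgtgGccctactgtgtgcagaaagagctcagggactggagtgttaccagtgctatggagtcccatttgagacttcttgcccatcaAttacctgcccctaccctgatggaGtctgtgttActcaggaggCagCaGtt
Ly6i-201: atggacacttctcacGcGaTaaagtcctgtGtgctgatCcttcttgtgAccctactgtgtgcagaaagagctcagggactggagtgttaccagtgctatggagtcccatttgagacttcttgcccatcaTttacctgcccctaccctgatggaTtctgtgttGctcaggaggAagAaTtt
Of the 50-base windows of the Ly6a transcript, 8.05% also occur in transcripts of other genes, Ly6i foremost. Ly6i and Ly6c2 were listed at 0 in every library, so the split of reads within this family is uncertain.

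Ly6a was measured at 851 and 694 FPKM in negative and at 556 and 519 FPKM in positive libraries. Both positive libraries lay below both negative ones, and the change was −0.52 ± 0.18 with an adjusted p of 0.166 by limma. It was −0.28 with median-of-ratios scaling (adjusted p 0.557) and −0.03 with the most abundant transcript of each library. Which transcripts made up this sum differed between the groups. Annotated Ly6a stood at 165 and 249 FPKM in negative against 227 and 269 FPKM in positive libraries, so these values overlapped and their change was 0.28 with an adjusted p of 0.603. Assembled forms that reach past the gene held 429 and 353 FPKM in negative and 237 and 145 FPKM in positive libraries. A form that touches no other annotated gene made up 247 and 202 FPKM of these in negative and 153 and 145 FPKM in positive libraries, and the rest lay on forms with exons at Ly6c1 or Ly6c2. With those forms left out, an alternative added after the data were seen, the change was −0.14 with an adjusted p of 0.690. The direction of Ly6a therefore depended on the forms counted.

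The Ly6 and uPAR domain family around it gave 3 genes past the threshold among 15 tested of 29, all higher. Ly6d, a surface marker of stratified epithelium, rose from 1323 and 1289 FPKM to 3524 and 3828 FPKM, a change of 1.49 ± 0.20 with an adjusted p of 0.031 by limma. Lypd3, which encodes the adhesion protein C4.4A of suprabasal keratinocytes, rose from 353 and 305 FPKM to 875 and 1136 FPKM, and Psca rose from 1.02 and 0.234 FPKM to 4.16 and 4.96 FPKM. Ly6c1 beside Ly6a was at 141 and 119 FPKM in negative and at 80.9 and 91.8 FPKM in positive libraries, with an adjusted p of 0.107. With the block 4 passed as higher and 1 as lower. The family median was 0.49, against −0.18 over all genes tested.

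**Figure D3:**
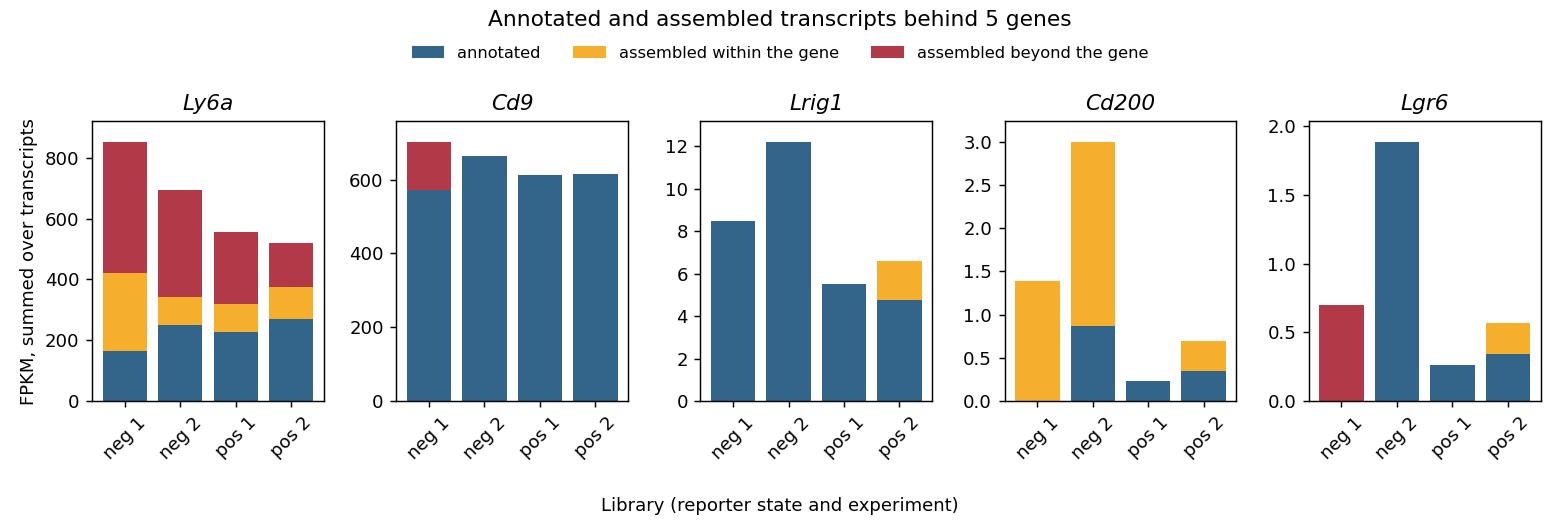
FPKM of Ly6a, Cd9, Lrig1, Cd200 and Lgr6 in each library (neg and pos, experiment 1 or 2), stacked by annotated transcripts (blue), assembled transcripts that stay near the gene (yellow) and assembled transcripts that reach more than 1000 bases past its annotated span (dark red). The blue part of Ly6a does not follow its total, and no annotated form carries Cd200 or Lgr6 in the first negative library.

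Cd24a encodes CD24, a short mucin-like protein bound by the lipid anchor and used with CD44 to sort carcinoma cells. Its locus is on the plus strand of chromosome 10 (43298975 to 43304068, mm9). Cd24a stood at 197 and 208 FPKM in negative and at 265 and 310 FPKM in positive libraries. It was the only one of the 10 genes with both positive libraries above both negative ones, 1.35-fold in experiment 1 and 1.49-fold in experiment 2. The change was 0.50 ± 0.15 (95% interval 0.11 to 0.90) with an adjusted p of 0.128 by limma, and 0.0536 with the block. In the second negative library the deposited interval, 186 to 195 FPKM, did not hold the deposited value. Of its 50-base windows, 3.905% also occur in transcripts of other genes.

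Pdpn encodes podoplanin, a mucin-like protein of lymphatic endothelium, fibroblasts and the edge of squamous carcinomas that binds ezrin and moesin at the cell cortex. Its position is the minus strand of chromosome 4 (142857334 to 142889467, mm9). Pdpn stood at 45.9 and 38.5 FPKM in negative and at 31.2 and 32.4 FPKM in positive libraries. The positive libraries were close to each other and below both negative ones. The change was −0.39 ± 0.15 with an adjusted p of 0.193 by limma, and −0.16 after median-of-ratios scaling. Among 21 ligands and partners of CD34, Thy-1, podoplanin, CD200 and CD24, 8 were tested and none passed, with a median change of −0.23 (−0.01 after that scaling). The ezrin gene Ezr was at 105 and 120 FPKM in negative and 146 and 158 FPKM in positive libraries, and the moesin gene Msn at 133 and 162 against 97.8 and 106 FPKM. The receptors of CD200, on myeloid cells, had Cd200r2 at 0 in every library.

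Cd9 encodes a tetraspanin that gathers integrins and growth factor precursors in the membrane. The gene lies on the minus strand of chromosome 6 (125410284 to 125444809, mm9). It was measured at 702 and 664 FPKM in negative and at 612 and 615 FPKM in positive libraries, the narrowest log2 range of the 9 genes above 0. The change was −0.15 ± 0.15 (95% interval −0.55 to 0.25) with an adjusted p of 0.575 by limma. It was 0.09 after median-of-ratios scaling, and −0.01 with annotated transcripts only, since 18.6% of the first negative library's value lay on an assembled form that runs past the gene. Some deposited intervals of Cd9 did not hold the deposited value. In experiment 1 the annotated form was at 571 FPKM in the negative library, with an interval of 496 to 517 FPKM. It was at 612 FPKM in the positive library, with 531 to 549 FPKM. The assembled form was at 131 FPKM, with 112 to 123 FPKM. Of the 50-base windows of Cd9, 15.5% also occur in another gene's transcripts. Of 35 tetraspanins and CD9 partners, 21 were tested and 1 passed: Hbegf, the precursor of a growth factor that CD9 binds, rose from 25.8 and 29.2 FPKM to 77.2 and 108 FPKM, a change of 1.70 ± 0.21 with an adjusted p of 0.025. With the block 1 passed as higher and 3 as lower. Their median change was −0.12, and 0.11 after median-of-ratios scaling.

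Eng is the one gene of the 10 in the TGF-beta pathway itself. The gene lies on the plus strand of chromosome 2 (32502115 to 32538189, mm9), and all of its 7 annotated forms were listed at 0 in every library. Such a 0 can be a failed estimate, since 2 of the forms were marked as fully covered by reads in the second negative library, and Bmpr2, a widely expressed receptor, was also listed at 0 throughout. Eng is therefore described only as listed at 0, with no statement on its expression. Its overlapping neighbour Fpgs, on the other strand, was at 25.03 and 29.5 FPKM in negative and 12.1 and 10.7 FPKM in positive libraries, and Ak1 beside it was at 25.8 and 26.2 against 14.4 and 16.1 FPKM. Of 19 ligands, receptors and targets around endoglin, 13 were tested, none rose and 3 fell past the threshold, with a median change of −0.59; with the block 1 passed as higher and 5 as lower. The ligand gene Tgfb3 fell from 9.99 and 13.5 FPKM to 3.70 and 3.77 FPKM, the signal carrier Smad1 from 14.9 and 15.7 FPKM to 7.77 and 7.50 FPKM, and the target gene Id3 from 36.1 and 37.2 FPKM to 18.0 and 17.6 FPKM. Id1, another target gene, was higher, at 85.2 and 62.5 FPKM in negative and 124 and 110 FPKM in positive libraries, a change of 0.67 ± 0.20 with an adjusted p of 0.122 by limma and 0.042 with the block.

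Promoter sequence was available for 7 of the 10 genes (RefSeq, GRCm38.p6): Cd34, Eng, Cd200, Pdpn, Cd9, Lrig1 and Lgr6. Motifs were sought on both strands in the 250 bases before the start site. The Smad-binding letters CAGAC were found in 3 of the 7, against 42.2% of 32851 promoters, the GC box GGGCGG in 4 of 7, against 32.7%, and the AP-1 letters TGANTCA in none, against 6.7%. The promoters of Cd200, with the second widest change among the tested markers, and Cd9, with the narrowest, are shown with CAGAC (or its reverse complement) and GGGCGG in capitals. Both hold both motifs. The Cd200 stretch is chr16:45409054-45409303 and the Cd9 stretch chr6:125494761-125495010, both minus strand.
Cd200: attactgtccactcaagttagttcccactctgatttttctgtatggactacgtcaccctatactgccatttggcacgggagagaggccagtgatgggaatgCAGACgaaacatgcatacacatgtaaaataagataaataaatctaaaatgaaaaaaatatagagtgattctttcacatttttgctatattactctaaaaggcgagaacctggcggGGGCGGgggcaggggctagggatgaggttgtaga
Cd9: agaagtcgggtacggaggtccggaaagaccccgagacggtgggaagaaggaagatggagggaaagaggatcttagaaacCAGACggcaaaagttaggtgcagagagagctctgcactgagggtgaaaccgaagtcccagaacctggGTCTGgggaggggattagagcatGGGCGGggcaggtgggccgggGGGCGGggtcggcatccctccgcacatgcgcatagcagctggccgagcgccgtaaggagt

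The antigens of the sort itself were read in the same libraries. Itga6, which encodes integrin alpha6, was at 331 and 410 FPKM in negative and 181 and 205 FPKM in positive libraries, a change of −0.93 ± 0.18 with an adjusted p of 0.054 by limma, and 0.017 with the block. Cd44 was at 81.5 and 112 FPKM in negative and 88.0 and 81.3 FPKM in positive libraries, and these overlapped. Of 32 such antigens and other stem cell surface genes, 27 were tested and 1 passed, Lgr4, as lower. Their median change was −0.57, and 9 passed as lower and 2 as higher with the block. Of 19 hair follicle stem cell and bulge genes, 13 were tested and 2 passed, both lower, Postn and the bulge transcription factor Lhx2, and the median change was −0.58; with the block 4 passed as lower and 1 as higher. Lhx2 was at 1.86 and 1.55 FPKM in negative and 0.283 and 0.125 FPKM in positive libraries.

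**Figure D4:**
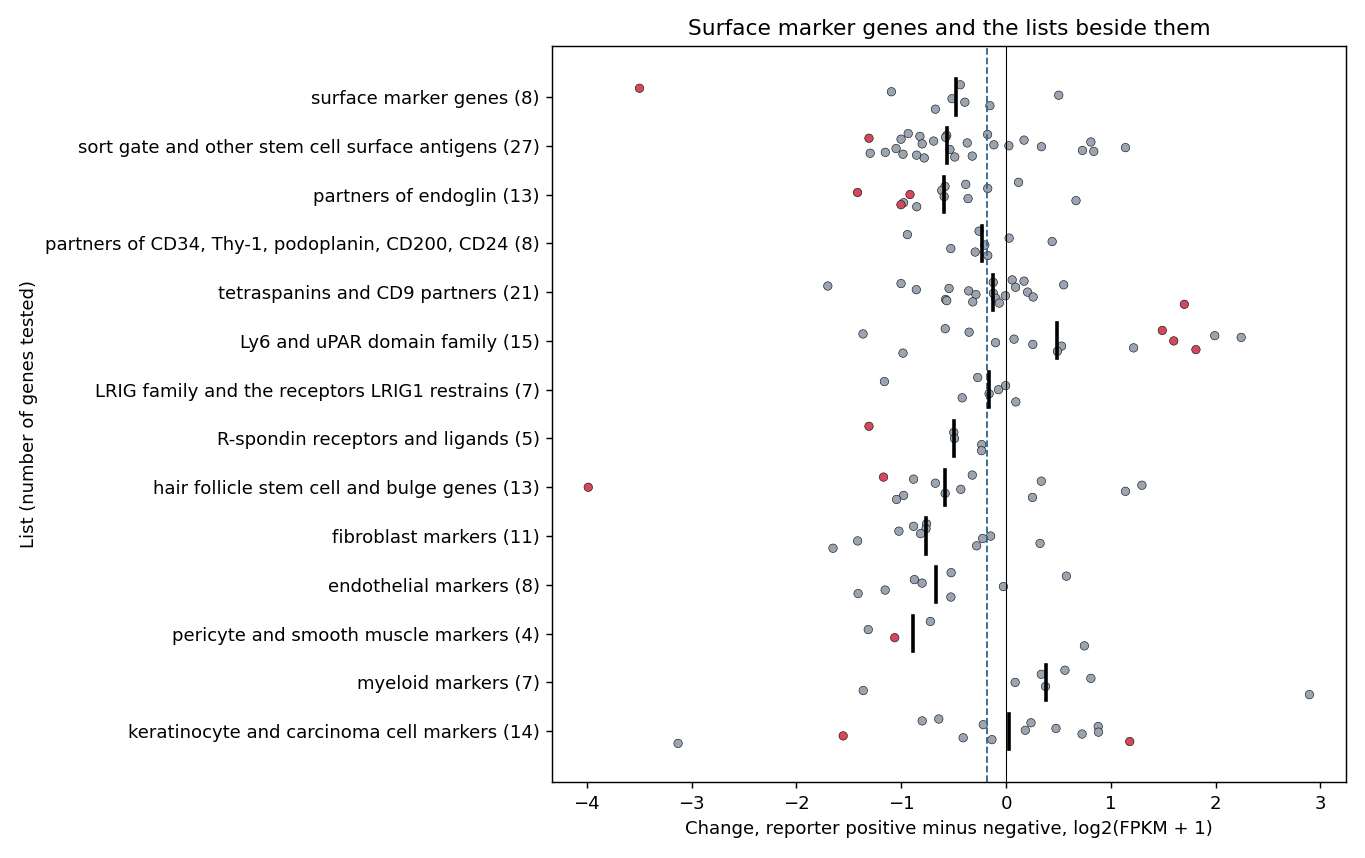
Change of each tested gene (points, positive less negative in log2(FPKM + 1)) in the surface marker panel and in each list with at least 2 genes tested, with the number tested in parentheses. Red points passed the threshold, black bars are list medians and the dashed line is the median of all genes tested, −0.18; Thy1 is the red point of the panel at −3.50.

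Markers of further cell types that can carry CD34, endoglin, podoplanin or Sca-1 were read as well. Endothelial markers summed to 33.6 and 44.5 FPKM in negative and 20.9 and 22.6 FPKM in positive libraries. Of these 18 genes, 8 were tested and none passed, with a median change of −0.66, and none was at 0 in every library. Of the 8, 6 were lower in both experiments, and Ecscr passed as lower with the block, at 2.30 and 4.40 against 0.606 and 1.24 FPKM. Plvap was at 2.86 and 7.69 against 1.17 and 1.18 FPKM, and Pecam1 at 2.28 and 4.49 against 1.92 and 1.99 FPKM. The most abundant, Ets1, was at 5.55 and 8.78 against 6.16 and 7.64 FPKM, and Tie1 at 5.11 and 3.84 against 7.99 and 6.31 FPKM. Pericyte and smooth muscle markers summed to 33.5 and 34.4 FPKM in negative and 20.3 and 21.3 FPKM in positive libraries. Of these 10 genes, 4 were tested, of which 3 were lower in both experiments and 1, Notch3, was higher in both. Notch3 was at 3.78 and 5.62 against 8.27 and 8.62 FPKM, a change of 0.75 that did not pass. Acta2 passed as lower, from 25.7 and 22.7 FPKM to 11.0 and 11.1 FPKM. The median change over the 4 was −0.89 and 2 passed as lower with the block, while Tagln was listed at 0. Their part in the Cd34, Pdpn, Ly6a and Cd200 values was not tested.

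The negative library of experiment 2 held the highest Thy1, Cd34, Cd200, Lrig1 and Lgr6 values. It also held the highest sums of several lists: fibroblast, endothelial, pericyte and smooth muscle, hair follicle, and melanocyte and Schwann cell genes, among others. Melanocyte and Schwann cell markers summed to 8.89 and 23.8 FPKM in negative and 8.08 and 11.4 FPKM in positive libraries. Erbb3, at 6.86 and 13.9 against 7.46 and 10.03 FPKM, made up most of the sum in each library. Of these 10 genes only Erbb3 was tested, it did not pass, with a change of −0.16 (0.06 after median-of-ratios scaling), and Pmel was listed at 0. The part of these genes in those values was not tested. Without that library the Lrig1 change was −0.44. Myeloid markers summed to 307 and 132 FPKM in negative and 997 and 1233 FPKM in positive libraries, of which S100a9, also a gene of stressed keratinocytes, made up 268 and 76.5 and 972 and 1185 FPKM. None of the 7 tested of 16 passed and their median change was 0.38, and no gene was at 0 in every library, while 1 passed in each direction with the block; Cd74 was at 25.6 and 42.0 against 8.39 and 17.5 FPKM, and the leukocyte gene Ptprc at 0.150 and 0.204 against 0.190 and 0.362 FPKM. Keratinocyte and carcinoma markers identified the cells as epithelial in all 4 libraries, with 14 of 16 measured and sums of 5217 and 5255 FPKM in negative and 7348 and 7759 FPKM in positive libraries. Their median change was 0.02, and with the block 4 passed as higher and 3 as lower. Of these, Ovol1 rose from 24.2 and 17.4 FPKM to 45.1 and 50.6 FPKM and Col17a1 fell from 723 and 775 FPKM to 259 and 250 FPKM.

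The experiments also differed within a group. From experiment 1 to experiment 2, Thy1 differed by 1.05 in negative and 0.88 in positive libraries on the log2(FPKM + 1) scale, and Cd200 by 0.74 and 0.45. Lgr6 differed by 0.76 and 0.31 and Lrig1 by 0.48 and 0.22, all higher in experiment 2. Ly6a differed the other way in both groups, by −0.29 and −0.10. For Thy1, Cd200, Lrig1, Ly6a, Cd24a and Cd9 the differences between experiments were smaller than the difference between groups within either experiment. For Lgr6, Cd34 and Pdpn this did not hold.

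**Figure D5:**
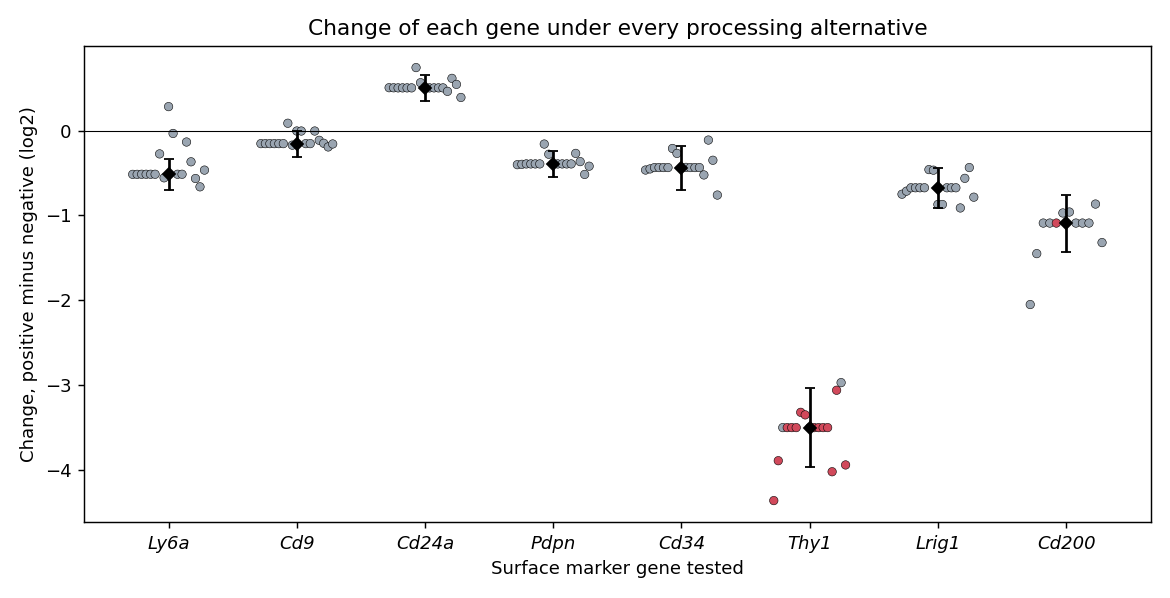
Change of each tested surface marker gene (reporter positive minus negative, log2 scale) as reported (black diamond, bar 1 SE) and under each processing alternative (circles, red where the adjusted p was under 0.05). Thy1 stayed between −4.36 and −2.97, Cd24a stayed above 0, and Ly6a and Cd9 each crossed 0 in 1 alternative.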

How the data were processed

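Per the labels, messenger RNA of sorted carcinoma stem cells was made into 4 libraries, grouped here by the reporter state and experiment number in their titles. Reads were aligned with TopHat and transcripts assembled and quantified with Cufflinks on mm9, per the submitters' processing notes; no version or annotation release is given in the sources used here. Per the file headers and attributes, the deposited tables hold an FPKM value (other attributes: interval and coverage) for each Ensembl and each assembled transcript. Assembly differs between libraries, which can move reads between forms. Library depth was 3.13 to 3.75 aligned gigabases, from coverage over FPKM.

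Transcripts of at least 200 exonic bases were summed per gene; shorter ones carried 95.1% to 98.9% of all FPKM. Of 96734 reference transcripts, 84077 were named by transcript ID and 1992 by gene ID through GENCODE M21, used for names only; others went to the gene whose exons held at least 50% of their length (12.1% to 13.6% of FPKM). Named genes held 85.8% to 88.5%. The 11832 genes that reached 1 FPKM in 2 or more libraries went into limma 3.58.1 (R 4.3.3; lmFit, eBayes with trend) on log2(FPKM + 1), two-sided, with Benjamini-Hochberg adjustment and 0.05 as the threshold. An exact permutation of 2 against 2 libraries cannot go below 0.333. The script was tested on simulated data in which 200 of 11832 genes were changed, on the log2(FPKM + 1) scale. It recovered 0.4% of 2-fold and 30.8% of 4-fold changes, so most changes of these sizes did not pass there. Python 3.11.15, pandas 2.3.3 and Biopython 1.88 made the tables.

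The experiment number in the titles pairs the libraries; deviations of same-numbered libraries from their group means correlated at 0.189 across genes. The panel, the lists and the tests were chosen with earlier results of these data known. Named were all 10 genes, Itga6, Cd44, up to 3 passing genes per list by smallest p (otherwise the 2 most abundant) and, for markers ranging by at least 1 on the log2 scale, the 2 genes of nearest pattern among those with a mean of at least 5 FPKM. Cd3e, Lck, Trac, Pdgfra, Bmpr2, Ptprc, Id1, Mmp2, Col6a1, Col1a2, Ecscr, Plvap, Pecam1, Notch3, Lrig3 and the neighbours of Ly6a and Eng were named after their values were seen. Keratins 5, 14 and 15 were not analysed here. A gene of the melanocyte and Schwann cell list is not reported here.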

Additional observations from a re-analysis of the deposited data

How the results depend on the processing

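The fall of Thy1 kept its direction in all 17 alternatives and its call in 14. It lost the call with no filter on low values (adjusted p 0.101), with annotated transcripts only (0.0867) and without reporter negative replicate 2 (0.0573); the range over alternatives was 0.00145 to 0.101. The number of markers called lower, 1 as reported, was 0 with no filter, 0 with annotated transcripts only, 2 with the replicate block, and 0 to 1 when each library was left out. No marker was called higher in any alternative by limma. With the replicate block Cd200 was called (0.0430), and no other marker's call changed. The count of all genes past the threshold, 650 as reported, was 70 with no filter, 1255 with genes listed at 0 left out, 1339 with the replicate block, 95 with annotated transcripts only, 328 with the most abundant transcript and 985 with robust variance. It ranged from 267 to 910 when each library was left out: it was 267 without reporter negative replicate 2, and in the positive group 396 without replicate 1 and 398 without replicate 2. The split of 322 higher and 328 lower genes became 485 and 219 with median-of-ratios scaling and 426 and 262 with quantile normalization. Ly6a reversed to 0.282 with annotated transcripts only, and Cd9 to 0.0861 with median-of-ratios scaling. The cause of these shifts was not tested, beyond the smaller sets of genes, forms or libraries that some alternatives use by construction. The Thy1 change itself stayed at −3.50 with no filter and with annotated transcripts only. Its SE was 0.528 and 0.514 there, against 0.469 as reported. Cd200 was tested in fewer alternatives, 12, because it did not reach the filter in the others. Wide intervals at low FPKM limit Cd200 and Lgr6, and a change that missed the threshold may still exist.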
